A study of Homo sapiens with 8 samples.

Results

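A group of 6 genes around the coactivator YAP and its TEAD partners is described here across breast cancer cell clones that lacked mir-141, mir-200c or both. They are CTGF, F3, MYOF, GADD45A and WWC1, which are listed as YAP and TEAD targets, and CAV1, whose product caveolin-1 is the principal structural protein of caveolae. They make up 6 of the 9245 RefSeq mRNA entries in the deposited table, each with 1 entry. The 6 genes were chosen from earlier results on these same ratios, so their values are given as a description and were not tested.

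All 8 RNA-seq libraries came from SK-BR-3, an established human cell line from a breast carcinoma that carries extra copies of ERBB2. They formed 2 experimental sets, and each set held 1 wild-type library and 1 library for each knockout genotype (mir-141, mir-200c, and both together, called the double knockout). The knockouts had been made with TALENs, paired nucleases designed to cut a given DNA sequence, and each knockout library was a different clone (numbers 23, 11 and 55 in set 1, and 10, 29 and 61 in set 2, for mir-141, mir-200c and double knockout). A value is therefore that of 1 clone beside 1 wild-type library, and clone and genotype cannot be told apart within a set.

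YAP and its paralogue TAZ (the gene WWTR1) are transcriptional coactivators that have no DNA-binding domain of their own and act mainly through TEAD factors. The Hippo kinases MST (STK3 and STK4) and LATS phosphorylate them and keep them out of the nucleus, whereas spreading, stiff substrates and actin tension favour their nuclear form. Caveolae are small invaginations of the plasma membrane that flatten under stretch, and they are built from caveolins on the inside and a coat of cavins. The mir-200 family is known for holding epithelial cells in their epithelial state.

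The microRNAs removed differ by a single base of the seed, the bases that pair with a target. Their mature sequences from RefSeq (GRCh38.p14, plus strand, chr12:6964155-6964176 and chr12:6963742-6963764) are shown 5′ to 3′ with the seed, bases 2 to 8, in capitals, and the seeds differ as C4U, counted from the 5′ end of the microRNA with the base of mir-141 first.
hsa-miR-141-3p: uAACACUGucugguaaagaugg
hsa-miR-200c-3p: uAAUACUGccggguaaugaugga

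WWC1 was the only one of the 6 genes with a match to either seed in its longest annotated 3′ UTR (GENCODE 29, GRCh38). It held 1 match for each microRNA, at bases 1900 and 302 of the 3286 bases after the stop codon (chr5:168470905-168470929 and chr5:168469307-168469331, plus strand). The seed match is in capitals in the following lines. Over the 9207 entries with an annotated 3′ UTR, 20.85% held a match for mir-141, 18.16% for mir-200c and 31.95% for either. No match says only that these 7 letters are not in that UTR.
WWC1, mir-141 match: ggtccccagtgcCAGTGTTttaccc
WWC1, mir-200c match: aatgaactaaagCAGTATTgagttg

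CTGF is shown by its promoter because TEAD factors recognise the letters GGAATG, and these occur there 3 times. The window searched ran from 250 bases before to 50 after the start of each gene, on both strands, in the RefSeq promoters of 5 of the 6 genes, with none at hand for GADD45A. The 3 matches in CTGF, now named CCN2, began at positions −169, −104 and −95 from its start, all on the strand of the gene. Of 35116 promoters in the table, 14.03% held at least 1 match and 0.128% at least 3. MYOF, F3, WWC1 and the 3 promoters of CAV1 held none. The stretch is from GRCh38.p14 (chr6:131951450-131951553, minus strand), with the matches in capitals, and a match of letters is not a measured binding site.
CTGF promoter: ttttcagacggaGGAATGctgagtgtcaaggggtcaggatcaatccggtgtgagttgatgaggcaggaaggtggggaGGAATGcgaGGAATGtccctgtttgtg

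Each deposited value was the log2 of a clone's level over that of the wild-type library in its set, so a value of 1 stands for 2 times the wild-type level, and neither expression levels nor read depth could be recovered from them. The SD of a column over all entries lay between 0.31 and 0.46. Between the sets, the 9 pairs of columns had a mean Pearson correlation of 0.0049 across genes and none above 0.0105 in size. Genes are not independent replicates, so this describes the libraries. Whether the values of set 2 stand beside the right gene names was not tested. A value of set 2 is accordingly given as listed beside the gene's name, and set 1 is described first. Of 8 luminal epithelial markers checked against the label of the line, 7 were listed, ERBB2 and EPCAM among them, with set 1 ratios from −0.39 to 0.54. Ratios cannot show how strongly a marker is expressed, and CDH1, which encodes E-cadherin, was not analysed here. Triplets of ratios are given below in the order mir-141, mir-200c, double knockout.

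In set 1, the ratios of all 6 genes were above 0 in both clones without mir-200c. In CTGF, F3, MYOF, GADD45A and WWC1 both libraries lacking mir-200c lay above both libraries that had it, without overlap, and CAV1 was the exception. Of all entries, 21.1% had this order, and because the genes were picked on these values nothing is read from the count of 5 of 6. CTGF, MYOF, GADD45A and CAV1 were above wild type in all 3 clones of set 1, as were 24.9% of all entries. A ratio above 0.5 was reached by CTGF and CAV1 in the mir-141 knockout (2 of 6, against 3.55% of all entries). Those 2 genes, MYOF and GADD45A passed it without mir-200c alone (4 of 6, against 9.05%), and CTGF, CAV1 and MYOF in the double knockout (3 of 6, against 7.36%). The plot of the 6 genes by clone shows the width of this range, from WWC1 near 0 to CAV1 at 4.01 times the wild-type level in the double knockout.

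**Figure D1:**
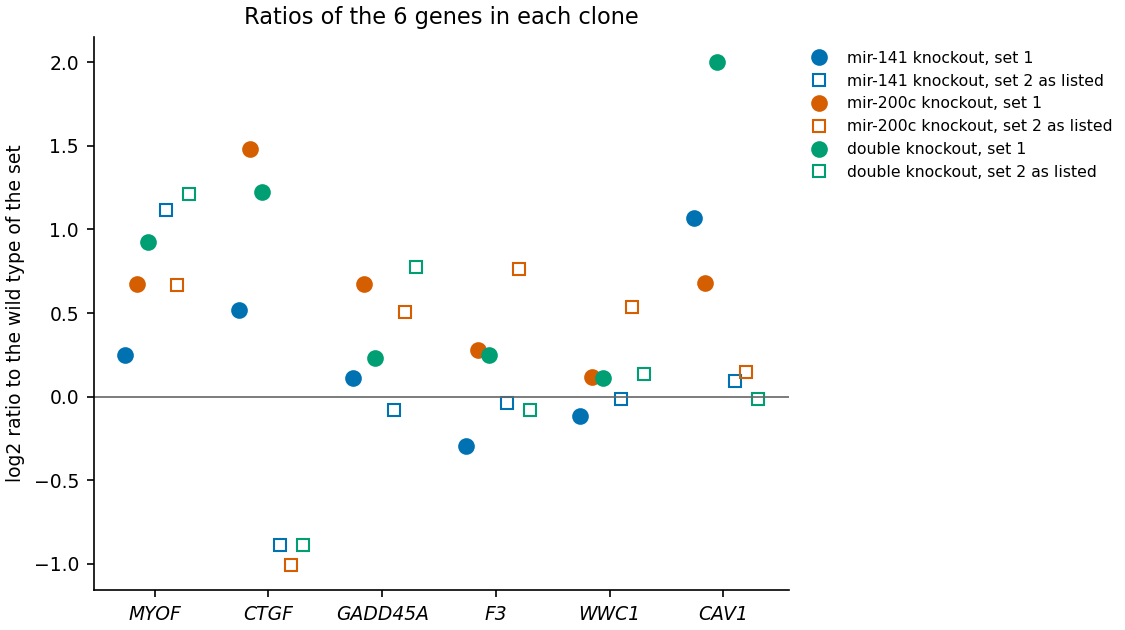
Log2 ratio of clone over wild type within a set (y axis) for the 6 genes (x axis), with 1 point per clone. Filled circles are set 1 and open squares are set 2 as listed. In CTGF the circles lie between 0.52 and 1.48 and the squares between −1.01 and −0.89, whereas in MYOF all 6 points lie above 0.

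CTGF encodes a secreted matricellular protein that binds integrins and growth factors and is a standard readout of YAP activity. Its set 1 ratios were 0.52, 1.48 and 1.23. All 3 clones lay above wild type, and the mir-200c knockout was highest, at 2.79 times the wild-type level. Its place among all entries in that column was 49 from the top, against 297 in the mir-141 knockout and 76 in the double knockout. The double knockout was 0.77 below the sum of the single knockouts, so the ratios of the single clones did not add up.

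F3 encodes tissue factor, the cell-surface receptor that starts blood coagulation. Its set 1 ratios were −0.29, 0.28 and 0.25. The clones without mir-200c were close to each other and on the other side of wild type from the mir-141 knockout. Adding the loss of mir-200c to the loss of mir-141 gave a difference of 0.54, or 1.46 times. The entry listed is 1 of 2 RefSeq mRNAs of this gene, and the sources used here do not say how 1 mRNA per gene was kept.

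MYOF encodes myoferlin, a membrane protein of the ferlin family involved in membrane fusion and repair. It had ratios of 0.25, 0.68 and 0.93 in set 1. The double knockout differed by 0.0034 from the sum of the single knockouts, the smallest such gap among the 6 genes. Loss of mir-200c gave nearly the same difference in both backgrounds, 0.68 against wild type and 0.68 against the mir-141 knockout, which rest on 4 different libraries. In set 2, as listed, these differences were 0.67 and 0.09, so the likeness did not recur. Loss of mir-141 averaged 0.83 there and loss of mir-200c 0.38.

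CAV1, whose protein inserts into the membrane and shapes caveolae, had the widest range of the 6 genes in set 1. Its ratios were 1.07, 0.68 and 2.00. Unlike the other 5 genes, it was higher in the mir-141 knockout than in the mir-200c knockout, so the libraries with and without mir-200c overlapped. The double knockout of set 1 placed it 15 from the top of all entries. Loss of mir-141, averaged over its difference in wild type (1.07) and in the mir-200c knockout (1.32), was 1.19, which was 23 from the top. The other 5 genes had between −0.16 and 0.25 on this measure. Of the 6 genes CAV1 alone passed 0.5 there, as did 2.67% of all entries.

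GADD45A encodes a small stress-inducible protein that acts in growth arrest and DNA repair. It had ratios of 0.11, 0.68 and 0.23 in set 1. The clones without mir-200c were unlike each other, with 1.60 and 1.18 times the wild-type level. Loss of mir-200c gave 0.68 against wild type and 0.12 against the mir-141 knockout, so the mean of 0.40 ± 0.39 (SD over the 2 backgrounds, n = 2) was about as large as its spread. The listed entry is 1 of 3 RefSeq mRNAs of the gene.

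WWC1, also called KIBRA, encodes a scaffold that activates LATS kinases and so restrains YAP, and it is itself listed among YAP targets. Its ratios were −0.12, 0.12 and 0.11 in set 1, the smallest of the group in both clones without mir-200c. Although the libraries did not overlap by mir-200c status, the difference of the mean (0.17) was within the SD of any column over all entries.

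Set over both backgrounds, loss of mir-200c in set 1 was 1.09 ± 0.55 for CTGF, 0.81 ± 0.18 for CAV1, 0.68 ± 0.0024 for MYOF, 0.41 ± 0.18 for F3, 0.40 ± 0.39 for GADD45A and 0.17 ± 0.08 for WWC1 (mean ± SD of the 2 backgrounds). The order of neighbours is not firm, since CTGF and CAV1, CAV1 and MYOF, F3 and GADD45A, and GADD45A and WWC1 each lay closer together than the larger of their SDs. Each SD rests on 2 values, and in set 2, as listed, those of MYOF lay far apart. CTGF, CAV1 and MYOF passed 0.5 in set 1, as did 4.4% of all entries. Across all genes the differences in the 2 backgrounds, which share no library, had a Pearson correlation of 0.340.

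**Figure D2:**
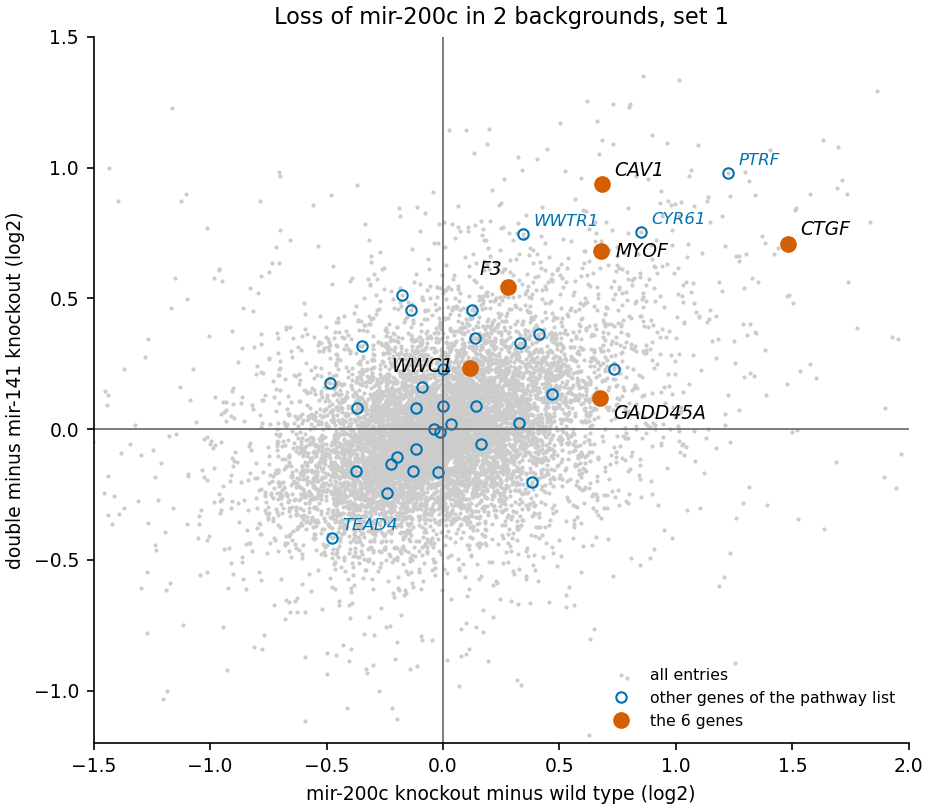
Difference in log2 ratio between mir-200c knockout and wild type (x axis) and between double and mir-141 knockout (y axis) in set 1, with 1 point per entry. The 6 genes (filled) all lie above 0 on both axes, with CTGF farthest right (1.48) and CAV1 highest (0.94); 65 of 9245 entries fall outside the axes, NT5E among them.

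In set 2, as listed, the picture differed by gene. MYOF stood at 1.12, 0.67 and 1.21. It was the only 1 of the 6 genes above wild type in all 6 clones, an outcome shared by 6.65% of all entries. CTGF was listed at −0.89, −1.01 and −0.89, below wild type in every clone and opposite to set 1. It was 1 of the 6 genes with all clones of one set on one side of wild type and all of the other set on the other side, as were 15.3% of all entries.

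CAV1 was listed at 0.09, 0.15 and −0.02 in set 2, close to wild type throughout. GADD45A had −0.08, 0.51 and 0.77 there, and WWC1 −0.01, 0.53 and 0.13. In GADD45A and WWC1 the clones without mir-200c lay above the other libraries of set 2 as listed. Since the columns of the sets were almost uncorrelated across genes, this is not read as a repeat of set 1. F3 was listed at −0.04, 0.76 and −0.08, with the mir-200c knockout high and the double knockout at the level of the mir-141 knockout. In set 2, GADD45A and WWC1 were separated upwards by mir-200c status (2 of 6, against 18.4% of all entries) and CTGF downwards (1 of 6, against 21%), the latter by a margin of 0.002 between the double and the mir-141 knockout.

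Taking the sets together, limma fitted to all entries called 0 genes for the mir-141, the mir-200c or the double knockout against wild type or for loss of mir-141 or mir-200c over both backgrounds (Benjamini-Hochberg adjusted p under 0.05, 0% of 9245 entries in each). At an unadjusted p under 0.05 there were 248, 499, 581, 476 and 821 of 9245, in the same order. Set 2 as listed serves as the replicate of set 1 in this fit. Because the columns of the sets were almost uncorrelated across genes, the 0 calls do not say whether a gene changed within a set. Without the wild-type library of set 2 limma called 1, 1 and 2 genes in the first 3 comparisons, and with either mir-200c clone left out in turn it called 1 for that knockout, none of them a member or pathway gene. The members' own values over both sets are a description. For loss of mir-200c, CTGF had 0.29 ± 0.35 and CAV1 0.41 ± 0.28 (log2 difference ± SE of the fit, 2 clones per group), so for CTGF the SE exceeded the difference. For loss of mir-141, CAV1 had 0.58 ± 0.28. MYOF had 0.53 ± 0.16 for loss of mir-200c and 0.54 ± 0.16 for loss of mir-141, and it was called for neither.

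Other genes of the pathway were taken from a list of 54, of which 34 were measured. Among those, limma called 0 in any of the 5 comparisons. In set 1, 11 of the 34 had both clones without mir-200c above the other libraries and 6 had them below, against 21.1% of all entries above and 26.2% below. In set 2, as listed, 7 of the 34 had them above and 10 below, against 18.4% and 21% of all entries. Without the mir-200c knockout library of set 1 the set 1 count above was 17 of 34, where 33.73% of all entries met this looser rule. The median of the list for loss of mir-200c in set 1 was 0.05, beside −0.02 over all entries. Of the 34, 4 exceeded 0.5, against 4.4% of all entries. The list leaves out the members and was chosen with earlier results of these data known, so nothing is read from these counts.

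The 9 other targets measured did not share 1 direction. CYR61, now CCN1, is the closest relative of CTGF in this list and also a secreted matricellular protein. Its ratios in set 1 were 0.16, 0.85 and 0.91. NT5E, the ecto-nucleotidase CD73, had the highest values of the list in set 1, with 1.71, 3.39 and 2.45. In set 2, as listed, NT5E had only 0.10, 0.13 and 0.09. PTPN14, a phosphatase that binds YAP, had 0.02, 0.33 and 0.35 in set 1. In set 1 these 3 and AMOTL2 had clones without mir-200c above the rest, whereas 4 targets were not separated and ARHGEF17 was separated downwards. Of all entries, 21.1% were separated upwards and 26.2% downwards in set 1. In set 2, as listed, 1 of the 9 targets was separated upwards and 3 downwards, against 18.4% and 21% of all entries.

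As in CTGF, the mir-141 knockout was the lowest of the 3 clones in CYR61. In set 2 it was listed at −0.24, −0.40 and −0.47, below wild type in every clone, as CTGF was. Of the 4 other targets with a promoter in the table, AMOTL2, LATS2 and PTPN14 held GGAATG once each and NT5E did not. AMOTL2 held it in 1 of its 2 promoters, and in LATS2 it lay after the start, at position 9. Among other list genes with a promoter, 1 of 4 effectors, 3 of 13 regulators and 1 of 2 caveola genes held a match. Of all genes with a promoter, 16.73% did, and nothing is read from counts this small. PTPN14 also held 3 seed matches for each microRNA in its 3′ UTR. That UTR has 9226 bases, against a median of 1305 over all entries with an annotated 3′ UTR. Nothing is read from its count of matches.

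Caveola genes were measured for 4 of 9. PTRF, which encodes cavin-1, the cavin needed to form caveolae, had ratios of 0.90, 1.22 and 1.88 in set 1. As with CAV1, all 3 clones were above wild type and the double knockout was highest. Loss of mir-141 over both backgrounds was 0.78 for PTRF and 1.19 for CAV1, and loss of mir-200c was 1.10 and 0.81. EHD2, an ATPase at the neck of caveolae, had 0.24, 0.73 and 0.47.

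The membrane-curving proteins PACSIN2 and PACSIN3 had −0.22, −0.13 and −0.38, and 0.52, 0.04 and 0.54. Thus PTRF and EHD2 had all 3 clones above wild type and the clones without mir-200c above the others, PACSIN3 was not separated by mir-200c status, and PACSIN2 was below wild type in all 3. In set 2 PTRF was listed at −0.32, −0.22 and −0.23, and EHD2 was also below wild type in all 3 clones. PACSIN2 had the largest set 2 values of the 4 in size, at −0.80, −1.87 and −1.78, and was separated downwards. PACSIN3 was listed at 0.13, −0.20 and −0.04 and was also separated downwards. CAV2 was not analysed here.

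The effectors themselves went in different directions. YAP1 had −0.10, −0.09 and 0.06 in set 1, within the SD of every column. WWTR1, encoding TAZ, had −0.20, 0.34 and 0.54, and both clones without mir-200c lay above the other libraries. TEAD4 had 0.13, −0.48 and −0.28, with the clones without mir-200c lowest. In their 3′ UTRs YAP1 held 2 seed matches for mir-141 and 1 for mir-200c, and WWTR1 held 2 and 0. These UTRs have 3483 and 3570 bases, against a median of 1305 over all entries with an annotated 3′ UTR. Other list genes held matches too, such as TAOK1 with 3 and 1, and nothing is read from the counts.

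TEAD2 had −0.03, −0.14 and 0.42, and VGLL4, which competes with YAP for TEAD, had 0.02, 0.16 and −0.04. Neither was separated by mir-200c status. In set 1 the libraries of WWTR1 and TEAD4 were thus ordered by mir-200c status in opposite directions. In set 2, as listed, TEAD4 had −0.25, 0.06 and 0.12 and was separated upwards by mir-200c status, opposite to set 1. WWTR1, at −0.33, −0.12 and −0.39 in set 2, was not separated. VGLL4 had 0.25, 0.76 and 1.19 there and was separated upwards, whereas YAP1 (−0.40, −0.27 and −0.45) and TEAD2 (−0.38, −0.08 and −0.65) were below wild type in all 3 clones.

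Among 16 kinases and other upstream regulators measured, 4 were separated upwards and 4 downwards in set 1. That is 25% each, against 21.1% and 26.2% of all entries. None had a loss of mir-200c above 0.5 in set 1. FRMD6, a FERM-domain protein that activates the Hippo kinases, had 0.27, 0.41 and 0.64. AJUBA, a LIM protein that inhibits LATS, had 0.13, 0.47 and 0.27, and the kinase gene STK4 had −0.19, 0.13 and 0.27. SAV1, the scaffold of the kinase pair, had 0.10, −0.24 and −0.14, and NF2, the membrane-bound activator merlin, had 0.11, −0.37 and −0.05. Since the counts of 4 and 4 lie near the shares of all entries, nothing is read from the side on which a regulator fell. In set 2, as listed, FRMD6 and AJUBA were below wild type in all 3 clones. NF2, separated downwards in set 1, was separated upwards there, at 0.08, 0.42 and 0.40. SAV1 was separated downwards in both sets and was listed at 0.80, −1.03 and −1.41 in set 2. STK4 had 0.18, −0.004 and 0.23 there and was not separated.

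**Figure D3:**
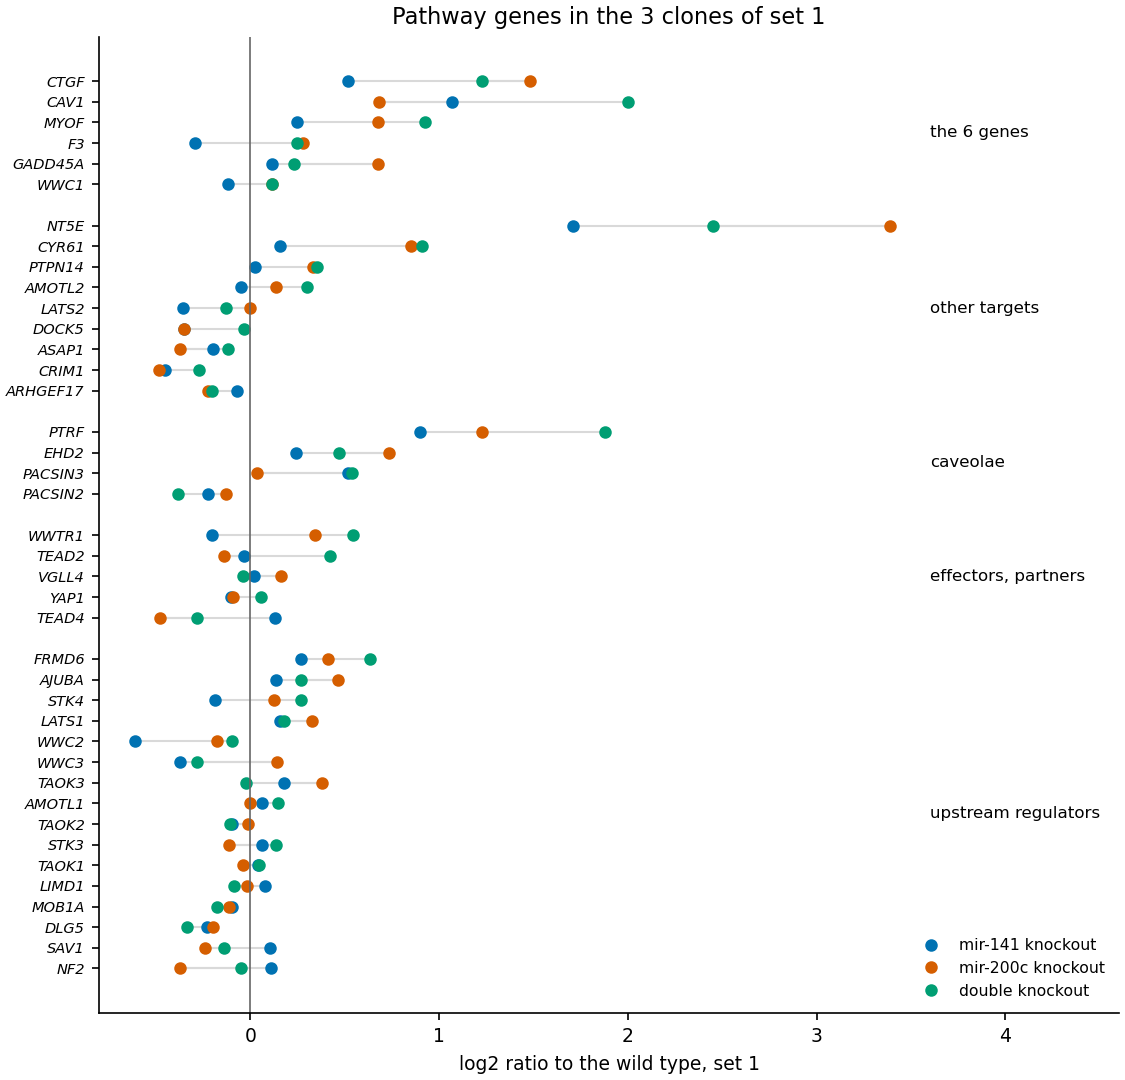
Log2 ratio to wild type in set 1 (x axis) for each measured gene of the pathway (y axis), grouped by role and sorted within a group by the mean difference for loss of mir-200c, with 1 point per clone. NT5E (1.71 to 3.39), CAV1 (0.68 to 2.00) and PTRF (0.90 to 1.88) lie farthest right, and upstream regulators lie between −0.61 and 0.64.

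Markers of other cell types were read in the same clones. The 2 measured basal keratins of 5 basal markers, KRT14 and KRT17, had set 1 ratios of 0.52, 1.00 and 0.95, and of 0.94, 2.20 and 2.07. CDH5, the 1 measured of 4 endothelial markers, had 0.10, 0.73 and 1.34. COL1A1, the 1 measured of 7 fibroblast markers, had −0.11, −0.41 and −0.15. Of 4 blood markers, LCP1 had −0.13, 1.05 and −0.44 and CD68 0.52, −0.48 and 0.40. In set 1 both keratins and CDH5 were thus higher in the clones without mir-200c than in the mir-141 knockout, as 5 of the 6 genes were. In set 2, as listed, KRT14 had −0.18, −0.25 and −0.25 and KRT17 −0.27, −0.29 and −0.39. Both keratins were thus below wild type in every clone there, and lowest without mir-200c. CDH5 had 0.20, 0.12 and 0.28 in set 2. The part of these markers in the values of the 6 genes was not tested.

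The genes were also set against their surroundings, since neighbours on a chromosome can share a shift. For each gene the 5 nearest measured genes on each side, 10 in all, were read in the clones of set 1. The 6 genes were picked on these same ratios, so nothing is read from how many neighbours they exceed. How often other entries exceed their own neighbours was not computed. MYOF (chromosome 10, 93306429 to 93482317, GRCh38) lay above all 10 neighbours in the mir-200c and the double knockout, whose medians were 0.08 and −0.01, and above 8 of 10 in the mir-141 knockout, whose median was −0.05. CTGF (chromosome 6, 131948176 to 131951373) lay above all 10 in each clone, although the medians of its neighbours were 0.01, 0.31 and −0.06.

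CAV1 (chromosome 7, 116524785 to 116561184) was above all 10 neighbours in the mir-141 and double knockouts and above 9 in the mir-200c knockout, where TES had 0.90. Its nearest neighbour MET, a receptor tyrosine kinase, had −0.05, −0.31 and −0.21. GADD45A (chromosome 1, 67685061 to 67688338) was above all 10 in the mir-200c knockout, 8 in the double knockout and 5 in the mir-141 knockout.

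F3 (chromosome 1, 94529225 to 94541800) lay below all 10 neighbours in the mir-141 knockout, where their median was 0.28. In the mir-200c and double knockouts it lay above 8 and 6 of them. WWC1 (chromosome 5, 168291651 to 168472303) was above 4, 8 and 9 of its neighbours in the 3 clones, whose medians were −0.09, −0.18 and −0.23.

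**Figure D4:**
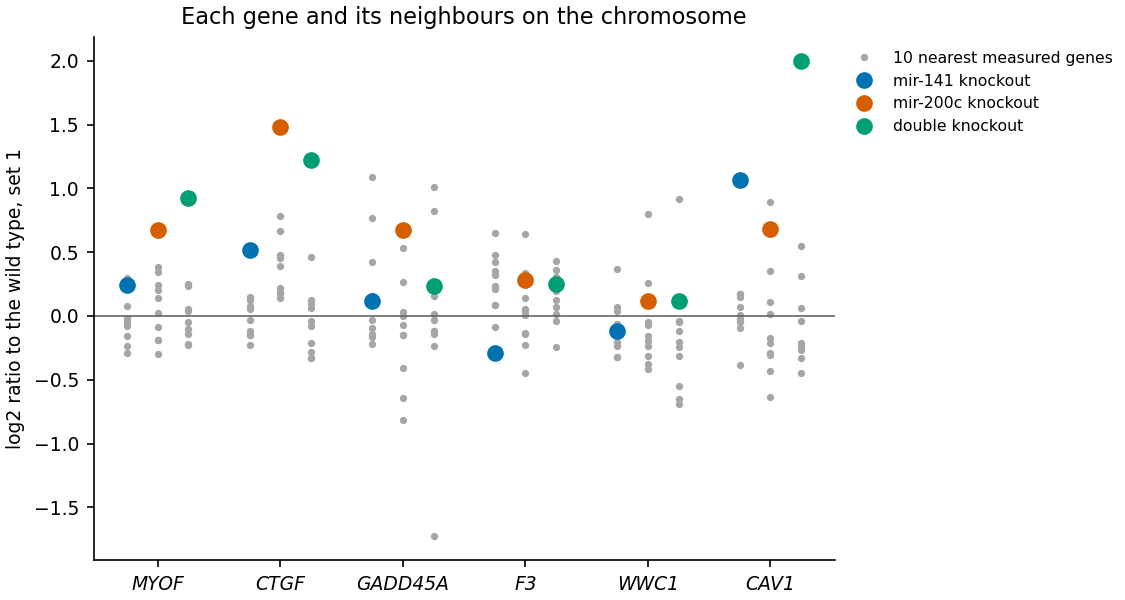
Log2 ratio to wild type in set 1 (y axis) of each of the 6 genes (coloured points, 1 per clone) and of its 10 nearest measured genes on the chromosome (grey points). CTGF lies above its neighbours in all 3 clones, and F3 in the mir-141 knockout lies below them at −0.29.

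Likeness between genes was measured as the Euclidean distance over the 3 log2 ratios of set 1. Within the group, F3 and WWC1 were closest (0.27) and WWC1 and CAV1 farthest apart (2.30). Outside it, MYOF was closest to NEDD9 (0.06) and ERAP1 (0.10), CTGF to ARHGAP26 (0.09) and PHLDB1 (0.11), and GADD45A to BLVRA (0.03) and TMED1 (0.04). F3 was closest to SLC2A6 and MAN2C1 (both 0.10), and WWC1 to FBXW11 (0.02) and GFPT1 (0.03).

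CAV1 had no such close match, and its nearest entries were THBS1 (0.36) and ZADH2 (0.37). It stood 15 from the top in the double knockout, where 141 of 9245 entries exceeded 1. With so few entries in that range, the lack of a close match is not read as a trait of CAV1. THBS1, which encodes the secreted matrix protein thrombospondin-1, had 1.21, 0.86 and 1.73. Distances rest on 3 values that share 1 wild-type library.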

How the data were processed

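Values deposited by the authors are log2 ratios, 1 column for each of the 6 knockout libraries, with the wild-type library of its set as the denominator, per the file headers. Per the labels' protocols, poly(A) RNA was fragmented, ligated to adaptors and sequenced. TopHat2 and the build GRCh37.p10 are named in the submitters' processing notes. Counting, scaling and filtering are not given in the sources used here, so the depth is unknown. No filter was applied, and all 6 members were read.

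Differences were formed within a set. Linear models were fitted to all entries with limma 3.58.1 (R 4.3.3), each wild type set to 0, with the set as a block, and tested on simulated data. The labels state the set of each library and the ratios never cross sets, so the set pairs the libraries. P-values against wild type rest on the spread between the sets (3 residual degrees of freedom). Loss over both backgrounds came from an additive model with 4. Its SEs and p-values also include how far the double knockout departs from the sum of the single knockouts. Each group has 1 clone per set, and no label states separate cultures. Alternatives were no block, median centring, a robust prior and leaving out each library.

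Coordinates are from GENCODE 29 (GRCh38), in which 9226 of 9245 entries were matched. Sequences are from RefSeq tables (GRCh38.p14) and 3′ UTRs from GENCODE. The members and lists were chosen with earlier results of these data known. Named genes were the members, all measured effectors and caveola genes, the 8 other list genes with the largest difference for loss of mir-200c in set 1, and the 2 entries nearest to each member. AMOTL2, LATS2, ARHGEF17, TES and MET were named after their values were seen.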

Additional observations from a re-analysis of the deposited data

Results flagged for a closer look

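Of 23 named members and pathway genes, 6 had all 3 clones of set 1 on one side of wild type and all 3 clones of set 2, as listed, on the other. The difference between the sets was not tested, since each set has 1 clone per genotype. Of all entries, 15.3% showed this. In these 6 set 1 was the higher, but the named genes were chosen largely on their set 1 values. DOCK5, a list gene outside the naming rule and named after its values were seen, went the other way (−0.25 in set 1 and 0.22 in set 2, means of 3 clones). The mean of set 1 minus the mean of set 2 was 2.00 for CTGF (1.07 against −0.93), 1.59 for PTRF (1.33 against −0.26) and 1.01 for CYR61 (0.64 against −0.37). It was 0.82 for AJUBA, 0.76 for EHD2 and 0.56 for FRMD6.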

How the results depend on the processing

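Limma called 0 genes in all 5 comparisons without the replicate block, with centred columns and with a robust prior. These fits also took set 2 as listed as the replicate of set 1, so the same limit holds. Leaving out each library gave 0 to 1 genes for the mir-141 knockout, 0 to 1 for the mir-200c knockout, 0 to 2 for the double knockout and 0 for either loss over both backgrounds. The calls arose without the wild type of set 2 (WDR20 in all 3, and FAM86B2 in the double knockout) or without a mir-200c clone (SLC26A11 without that of set 1, HIST1H2BH without that of set 2), all named after their values were seen. The smallest adjusted p over these fits ranged from 0.00705 to 1. No pathway gene was called in any. A fit with 1 library left out assumes that the lone library varies like the other groups.

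The median of the 6 genes for loss of mir-200c in set 1 was 0.54, against 0.68 from wild type alone, 0.61 from the mir-141 knockout alone and 0.35 in set 2 as listed. CTGF reversed in set 2, to −0.50, and CAV1 had 0.02 there. Of the 18 ratios of the 6 genes in set 1, 9 exceeded 0.5 and 4 exceeded 1. With a clone left out, 5 to 7 of the remaining 12 exceeded 0.5. Among all 9245 entries, 328 exceeded 0.5 in the clone without mir-141 alone, 837 without mir-200c alone and 680 without both. A ratio of 1 was exceeded there by 54, 157 and 141 entries, respectively. The 6 genes were picked on these same ratios, so nothing is read from their counts. The counts separated upwards by mir-200c status, added after the data were seen, were 5 of 6 members in set 1 and 2 in set 2, and 11 and 7 of 34 pathway genes. Those separated downwards were 0 and 1 members and 6 and 10 pathway genes. With 1 library of set 1 left out the upward counts were 5 to 6 and 12 to 17, where 30.95% to 37.69% of all entries met the looser rule. The upward pathway count was 17 without the mir-200c knockout of set 1. The median of the neighbours for loss of mir-200c was −0.11, and 0.0003 with 10 on each side. The causes were not tested. Levels and depth are unknown, so weakly and strongly expressed genes cannot be told apart.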
